A study of Homo sapiens with 12 samples.

Results

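The anaphase-promoting complex is the ubiquitin ligase that ends mitosis, and its transcripts and those of its regulators were examined in H1299 cells depleted of GAS41. The set held 10 genes, taken by symbol from a deposited count table of 13853 genes: the coactivators CDC20 and FZR1, the inhibitor FBXO5, the securin gene PTTG1, the separase gene ESPL1, and the subunits ANAPC1, ANAPC11, CDC16, CDC23 and CDC27. Each symbol matched 1 row, and all 10 genes passed the filter on low counts. H1299 is an established human non-small cell lung cancer line. The control group (shNT, 3 libraries) carried a control vector and the knockdown group (shGAS41, 3 libraries) a short hairpin against GAS41, the chromatin protein encoded by YEATS4. Both groups were virally infected and drug-selected before the experiments, and the labels name no further allele or agent. The labels describe 1 knockdown group, so no further hairpin could be compared. They are also silent on whether replicate libraries came from separate cultures, and the p-values then reflect only how these libraries scatter, which can be technical scatter.

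The complex attaches ubiquitin to proteins that carry short recognition sequences, which sends them to the proteasome. CDC20 brings substrates to it in mitosis, securin among them once the spindle checkpoint is satisfied. FZR1 (also called CDH1, a name shared with an unrelated cadherin gene) brings substrates to the complex from mitotic exit through G1. FBXO5, also known as EMI1, holds the complex inactive in S and G2 phase. At anaphase the destruction of securin, the product of PTTG1, frees separase, the protease encoded by ESPL1, which cuts cohesin and lets sister chromatids part. Transcripts of CDC20, PTTG1 and many other mitotic genes are known to peak in G2 and M phase, so in RNA from a whole culture fewer cells in those phases and less RNA per cell cannot be told apart.

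Library totals lay between 58629147 and 72747010 counts. YEATS4 fell in the knockdown libraries to between 1.66 and 2.01 CPM (counts per 1000000 of the TMM-scaled library total), from between 44.1 and 47.6 CPM in control libraries (edgeR adjusted p = 6.35e-10). Of 5 epithelial markers KRT8 and KRT18 were listed, with a sum of 866 to 881 CPM of the unscaled library total in control and 589.7 to 611 CPM in knockdown libraries, and VIM was at 2589 to 2709 and 3023 to 3073 CPM on the same scale. EPCAM, KRT19, CDH1 and all 4 lung lineage markers examined were not listed in the table. The part of these shifts in the results below was not tested. None of the 4 blood and 3 endothelial markers was listed, and of 5 fibroblast markers COL1A1 alone was, with a sum of 0.577 to 0.957 CPM in control and 1.45 to 1.93 CPM in knockdown libraries.

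The promoters of the members with the largest falls are shown with that of FZR1, since CDC20 and FZR1 are paralogous coactivators whose transcripts fell by different amounts. Each sequence is a RefSeq promoter window of 300 bases (GRCh38.p14), from 250 bases before to 50 after an annotated start. Genes with several RefSeq starts are named by start. Capitals mark matches, on either strand, to 4 short motifs: TTTGAA, the core of the cell cycle homology region (CHR) of G2/M genes, CCAAT, the core of the NF-Y box, and the E2F-type cores TTCCCGC and TTGGCGC. All 10 genes matched the promoter table, through 16 windows.
CDC20, chr1:43358731-43359030 (+ strand): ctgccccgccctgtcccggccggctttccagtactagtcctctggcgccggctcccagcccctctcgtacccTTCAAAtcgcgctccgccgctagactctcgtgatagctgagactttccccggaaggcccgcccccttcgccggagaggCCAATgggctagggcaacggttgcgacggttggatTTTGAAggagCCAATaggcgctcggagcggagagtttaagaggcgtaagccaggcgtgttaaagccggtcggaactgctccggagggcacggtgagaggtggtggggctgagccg
ESPL1, chr12:53268049-53268348 (+ strand): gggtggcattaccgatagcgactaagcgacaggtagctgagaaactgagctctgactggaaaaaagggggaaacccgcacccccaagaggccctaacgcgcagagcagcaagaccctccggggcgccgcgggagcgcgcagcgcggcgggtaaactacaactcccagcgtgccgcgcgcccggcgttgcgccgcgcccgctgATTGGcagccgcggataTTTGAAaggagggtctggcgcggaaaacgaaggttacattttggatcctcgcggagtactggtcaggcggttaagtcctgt
FBXO5, outer start, chr6:152983530-152983829 (- strand): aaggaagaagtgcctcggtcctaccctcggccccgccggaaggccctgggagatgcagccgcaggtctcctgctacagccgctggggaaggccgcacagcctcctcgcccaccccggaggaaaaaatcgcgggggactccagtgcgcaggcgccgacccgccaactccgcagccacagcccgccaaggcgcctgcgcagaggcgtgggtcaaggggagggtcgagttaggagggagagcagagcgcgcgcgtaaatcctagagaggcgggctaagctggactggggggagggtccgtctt
FBXO5, inner start, chr6:152982992-152983291 (- strand): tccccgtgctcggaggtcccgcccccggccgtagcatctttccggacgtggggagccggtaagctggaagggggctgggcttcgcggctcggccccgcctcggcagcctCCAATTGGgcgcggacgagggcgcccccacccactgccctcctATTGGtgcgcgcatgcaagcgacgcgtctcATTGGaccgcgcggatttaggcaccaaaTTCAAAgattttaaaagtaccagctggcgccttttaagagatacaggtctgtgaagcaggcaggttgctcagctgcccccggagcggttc
PTTG1, outer start, chr5:160421605-160421904 (+ strand): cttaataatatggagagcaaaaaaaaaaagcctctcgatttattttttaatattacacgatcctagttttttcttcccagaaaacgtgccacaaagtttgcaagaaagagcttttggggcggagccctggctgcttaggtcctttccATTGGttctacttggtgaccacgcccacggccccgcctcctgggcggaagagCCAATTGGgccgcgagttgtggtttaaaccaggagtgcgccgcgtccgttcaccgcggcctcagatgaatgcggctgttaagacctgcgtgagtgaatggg
FZR1, outer start, chr19:3506061-3506360 (+ strand): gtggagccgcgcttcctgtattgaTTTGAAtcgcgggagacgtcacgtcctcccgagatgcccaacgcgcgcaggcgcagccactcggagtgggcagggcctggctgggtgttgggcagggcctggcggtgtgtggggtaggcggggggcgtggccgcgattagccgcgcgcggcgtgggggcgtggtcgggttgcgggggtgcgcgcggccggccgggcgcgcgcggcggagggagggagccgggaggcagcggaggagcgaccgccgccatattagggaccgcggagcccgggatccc

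In these letters CDC20 held TTTGAA on the gene strand from base -65, counted with the first transcribed base as 0, with CCAAT from base -100 and from base -55. A second TTTGAA lay on the other strand from base -178. ESPL1 held TTTGAA from base -31 and CCAAT on the other strand from base -48. The inner start of FBXO5 had TTTGAA on the other strand from base -40 and 4 CCAAT matches, of which a pair overlapped, while its outer start had no match to any of the 4 motifs. PTTG1 had 3 CCAAT matches, again with an overlapping pair, and no TTTGAA in either window. FZR1 had a single TTTGAA, from base -226 of its outer start, and no CCAAT in either window.

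Over all members TTTGAA occurred in 5 of 16 windows, those of CDC20, FZR1, FBXO5, ESPL1 and ANAPC1, against 15.2% of the 35116 promoter windows of the RefSeq table. CCAAT occurred in 11 of 16, against 34.6%, TTCCCGC in 6 of 16, against 6.55%, and TTGGCGC in none, against 3.04%. Windows of 1 gene can overlap and then count a site again, as at PTTG1 and ANAPC11. Counted by gene, CCAAT occurred in any window of 8 members and TTCCCGC in any window of 5. TTTGAA and CCAAT stood together in 3 windows, those of CDC20, ESPL1 and the inner start of FBXO5, against 5.90% of all windows. These 3 genes had the largest falls among the 10, a match noticed after the values were seen. TTCCCGC was found at ANAPC11, CDC16, CDC23, CDC27 and the inner start of FZR1, the 5 members with the smallest changes. That match too was noticed after the values were seen, and a gene counted if any of its windows held the motif. A link between motifs and the size of the changes was not tested. The matches describe the letters of these windows. Binding at them was not measured in the data used here.

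**Figure D1:**
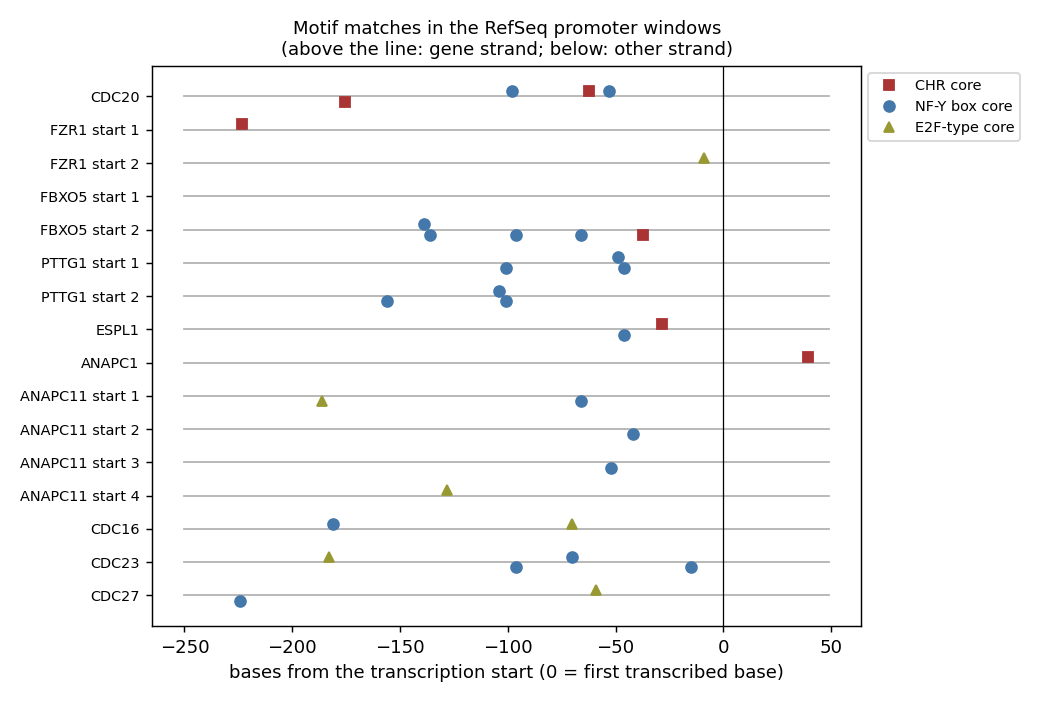
Positions of motif matches in the 16 RefSeq promoter windows of the 10 genes, in bases from the start of transcription on the x axis, with symbols above a line for the gene strand and below it for the other strand. Squares mark TTTGAA, circles CCAAT and triangles TTCCCGC, and squares and circles occur together in the windows of CDC20, ESPL1 and the inner start of FBXO5.

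After GAS41 knockdown 8 of the 10 transcripts fell and none rose, at a Benjamini-Hochberg adjusted p under 0.05 over 13846 genes in the quasi-likelihood test of edgeR. In this comparison 68.1% of all genes tested were called, 34.5% as falls and 33.6% as rises. The knockdown and control libraries did not overlap for 8 members, and for 72.3% of all genes. All 5 regulators among the members fell, with -0.89 as their median log2 fold change. Of the 5 subunits among the members 3 fell, with a median of -0.14. The members were chosen with earlier results of these data known. The median over all genes tested was -0.0051.

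**Figure D2:**
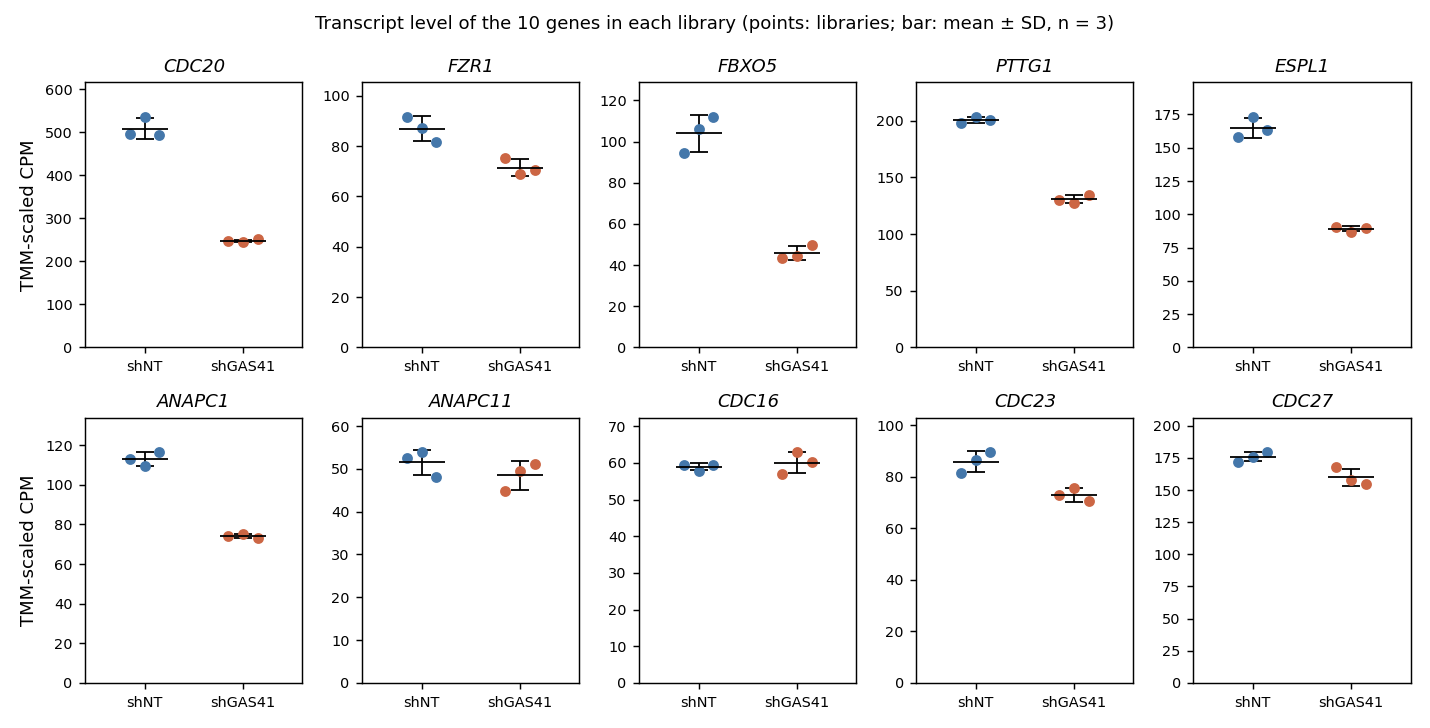
TMM-scaled CPM (y axis, from 0) of the 10 genes in the 3 control (shNT) and 3 knockdown (shGAS41) libraries, with points for libraries and bars for mean ± SD. The groups are apart in every panel except those of ANAPC11 and CDC16.

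CDC20 and FZR1 carry substrates to the complex at different times, and their transcripts fell by different amounts. CDC20 (ENSG00000117399) stood at 496, 535 and 493 CPM in the control libraries and at 246, 246 and 251 CPM in the knockdown libraries. Every knockdown library was thus far below every control library. The mean went from 508 ± 23.7 to 248 ± 2.94 CPM (SD, n = 3 each), which is -1.04 ± 0.04 on the log2 scale (SE; edgeR adjusted p = 4.16e-08), and only 455 of the 13846 genes had a more negative change. Reads of CDC20 may be shared with its pseudogene CDC20P1, whose counts were 2.35 to 2.64% of those of CDC20. CDC20P1 fell from 13.2 ± 0.478 to 6.13 ± 0.206 CPM, and with its counts added the log2 fold change of CDC20 was -1.04.

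FZR1 (ENSG00000105325) was measured at 91.6, 87.4 and 81.8 CPM in the control libraries and at 75.1, 68.7 and 70.4 CPM after knockdown. The groups did not overlap, but the lowest control and highest knockdown library lay close together. Its log2 fold change was -0.28 ± 0.06 (edgeR adjusted p = 0.00125), which left 82.2% of the control level. The FZR1 locus overlaps that of MFSD12 in the RefSeq annotation, and MFSD12 rose from 37.4 ± 1.28 to 50.2 ± 2.06 CPM. The use of strand in counting is not given in these sources, and the part of shared reads in either value was not tested.

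FBXO5 (ENSG00000112029), whose product blocks the complex until mitosis, had the largest fall of the 10. It was at 94.3, 106 and 112 CPM in control libraries and at 43.5, 44.3 and 49.7 CPM after knockdown. The values of the 2 groups were far apart, although this gene had the widest spread within groups, with a coefficient of variation of 8.66% in control and 7.41% in knockdown libraries. The log2 fold change was -1.18 ± 0.07 (edgeR adjusted p = 4.08e-07), a level of 44.0% of control. The difference between the falls of FBXO5 and CDC20 was not tested.

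Securin and separase form a pair of inhibitor and protease, and the transcript of the protease fell further. PTTG1 (ENSG00000164611) was at 198, 203 and 201 CPM in control and at 130.4, 128 and 134 CPM in knockdown libraries. ESPL1 (ENSG00000135476) was at 158, 173 and 163 CPM and at 90.7, 86.9 and 89.9 CPM in the same order. Neither gene showed any overlap between groups, and PTTG1 had the smallest spread among control libraries of the 10 genes, with a coefficient of variation of 1.39%. PTTG1 changed by -0.62 ± 0.04 and ESPL1 by -0.89 ± 0.05 on the log2 scale (edgeR adjusted p = 6.41e-07 and 1.74e-07). PTTG1 has near copies, of which PTTG2 and PTTG3P were not listed in the table, so reads of these copies could not be weighed.

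The ratio of the counts of 2 genes in the same library does not depend on the scaling between libraries, and 3 such ratios were compared. These ratios are not corrected for gene length, so only their change between groups is compared. The counts of CDC20 were 5.41, 6.13 and 6.03 times those of FZR1 in control libraries and 3.28, 3.58 and 3.57 times in knockdown libraries. This ratio fell to 59.3% of control, a difference of -0.75 on the log2 scale. The ratio of FBXO5 to FZR1 was 1.03, 1.21 and 1.37 in control libraries and 0.579, 0.645 and 0.707 in knockdown libraries, a difference of -0.90. The inhibitor and CDC20 transcripts were therefore both lower relative to FZR1 in every knockdown library than in any control library.

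The ratio of PTTG1 to ESPL1 moved the other way, from 1.25, 1.17 and 1.23 in control to 1.44, 1.47 and 1.49 in knockdown libraries. It was 1.20-fold higher after knockdown, by 0.27 on the log2 scale. All 3 ratios kept their groups apart. Each had an exact two-sided permutation p of 0.1 (adjusted p = 0.1 over the 3 ratios), the smallest that this permutation test can give with 3 libraries against 3, so it could not reach 0.05. The differences were larger than the SD within either group, for example -0.75 against SDs of 0.097 and 0.072 on the log2 scale for CDC20 over FZR1.

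**Figure D3:**
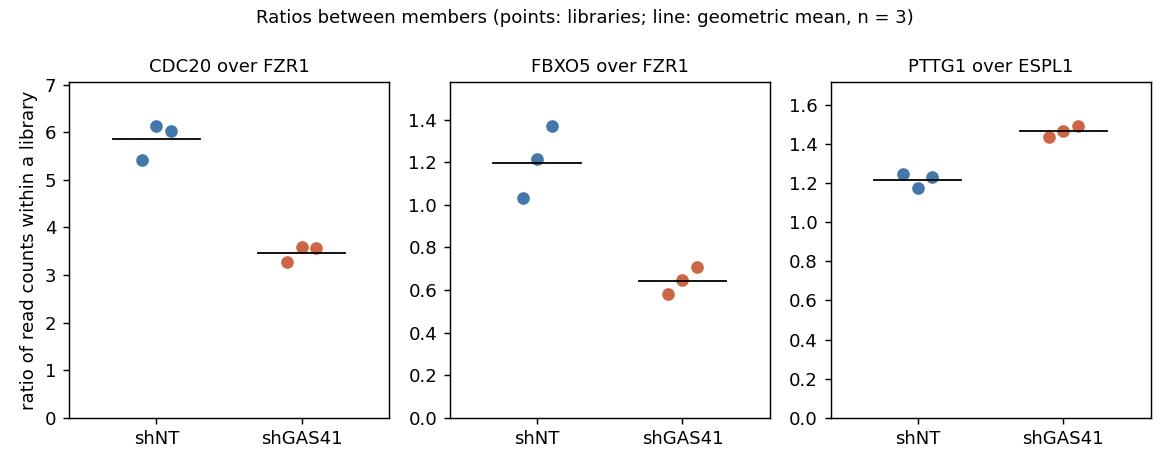
Ratio of read counts within each library (y axis, from 0, not corrected for gene length) for CDC20 over FZR1, FBXO5 over FZR1 and PTTG1 over ESPL1, with points for libraries and lines for the geometric mean of 3. The first 2 ratios are lower in all knockdown libraries and the third is higher in all of them.

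Of the 5 subunits among the members ANAPC1 had the largest fall. ANAPC1 (ENSG00000153107) encodes the largest subunit, the scaffold that joins the catalytic module to the rest of the complex, and was at 113, 109.6 and 116 CPM in control and at 74.0, 75.0 and 73.0 CPM in knockdown libraries. The groups were well separated and the knockdown libraries nearly equal. Its log2 fold change of -0.61 ± 0.04 (edgeR adjusted p = 1.14e-06) was close to that of PTTG1. ANAPC1 has near copies on the same chromosome, and ANAPC1P1, the copy looked up, was not listed.

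The members among the TPR subunits, which form the arc that receives the coactivator, had log2 fold changes closer to 0. CDC23 (ENSG00000094880) was at 81.4, 86.3 and 89.4 CPM in the control libraries and at 72.9, 75.6 and 70.4 CPM after knockdown. That was -0.23 ± 0.05 on the log2 scale (edgeR adjusted p = 0.00261). CDC27 (ENSG00000004897) was at 172, 176 and 179 CPM and at 168, 157 and 154 CPM, a change of -0.14 ± 0.05 (edgeR adjusted p = 0.0214). Neither gene's groups overlapped, but the call of CDC27 ended without control library 2 (edgeR adjusted p = 0.0807) or 3 (0.0766) and without knockdown library 2 (0.0854) or 3 (0.0882). Near copies CDC27P1, CDC27P2 and CDC27P3 were not listed. The CDC23 locus overlaps that of the mitotic kinesin gene KIF20A, which fell from 200.4 ± 2.01 to 114 ± 12.0 CPM, and the part of shared reads in the CDC23 value was not tested.

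CDC16 (ENSG00000130177), another TPR subunit, was at 59.4, 57.8 and 59.5 CPM in control and at 57.0, 62.9 and 60.3 CPM in knockdown libraries. ANAPC11 (ENSG00000141552), the RING subunit that binds the ubiquitin-loaded enzyme, was at 52.5, 53.9 and 48.1 CPM and at 44.8, 49.4 and 51.2 CPM. For both genes the groups overlapped, and neither was called. Their log2 fold changes were 0.03 ± 0.05 for CDC16 (edgeR adjusted p = 0.654) and -0.09 ± 0.07 for ANAPC11 (0.258). ANAPC11 overlaps ALYREF in the RefSeq annotation, which fell from 183 ± 9.11 to 119 ± 7.97 CPM, and shared reads were not tested there either.

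The complex has 9 further subunit genes in the list. Of all 14 subunit genes 9 fell, 1 rose and 4 were not called, with a median log2 fold change of -0.22. The share called was near the 68.1% of all genes, of which 34.5% fell and 33.6% rose. The calls of the subunit genes were thus mostly falls, while those of all genes were split almost evenly. The scaffold gene ANAPC4 fell by 0.57 and its neighbour in the complex ANAPC5 by 0.27, and the cullin gene ANAPC2, catalytic partner of ANAPC11, by 0.22. The TPR gene ANAPC7 fell by 0.24, and CDC26, a small subunit that binds CDC16, by 0.51. ANAPC10, which forms the receptor for substrate motifs together with the coactivator, fell by 0.43. ANAPC13 (-0.09) and ANAPC15 (-0.05), which serves in the turnover of checkpoint-bound CDC20, were not called. ANAPC16, a small TPR-associated subunit, was the single subunit gene that rose, from 32.0 ± 1.64 to 42.9 ± 0.930 CPM or by 0.42 ± 0.06 on the log2 scale (edgeR adjusted p = 8.15e-05). None of the 14 changed as much as CDC20 or FBXO5.

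**Figure D4:**
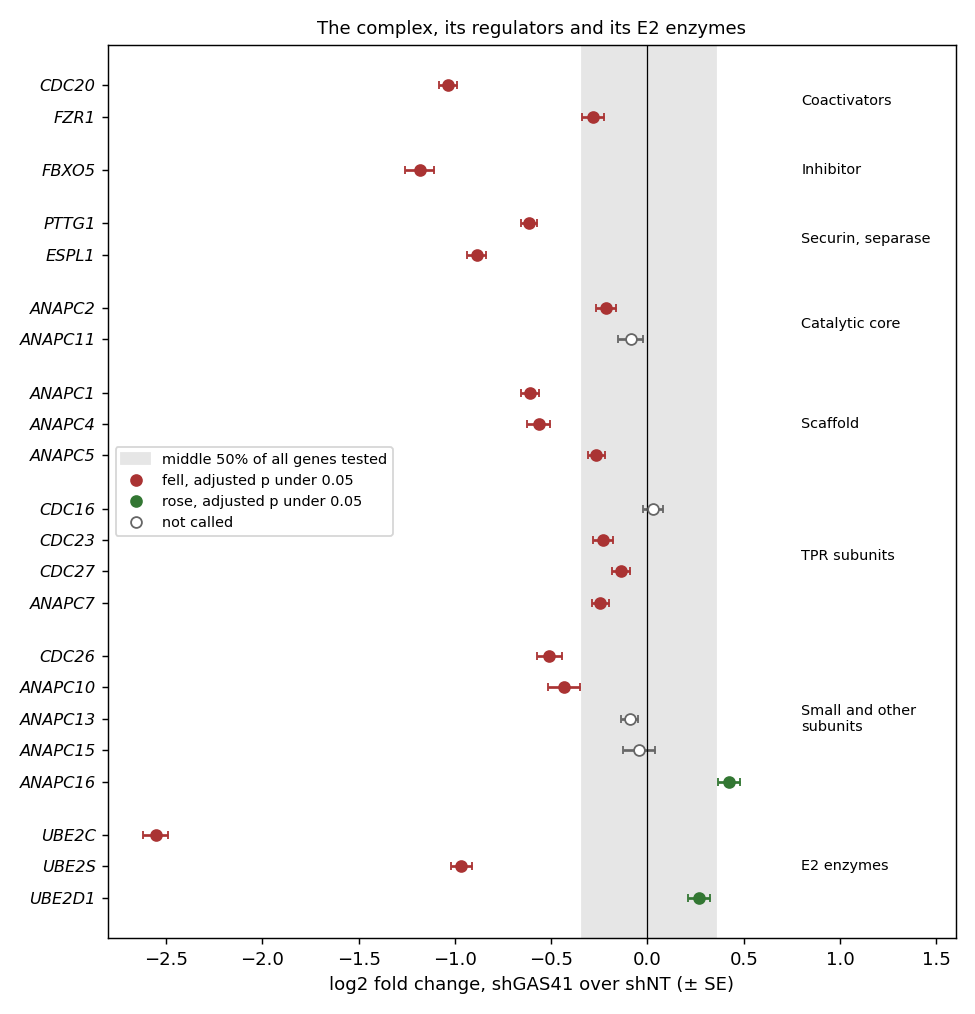
Log2 fold change of knockdown over control (x axis, points with SE bars) for the regulators, the 14 subunits and 3 ubiquitin-conjugating enzymes, grouped by role, with the grey band covering the middle 50% of all genes tested. CDC20, FBXO5, ESPL1, PTTG1, UBE2C and UBE2S lie left of the band together with a few subunits, and most subunits lie within it.

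The ubiquitin-conjugating enzymes (E2) that work with the complex moved in different directions. UBE2C, which starts the chains, fell from 210 ± 11.7 to 35.7 ± 2.44 CPM. Its log2 fold change of -2.55 ± 0.06 was larger than that of any of the 10 members. UBE2S, which extends the chains, fell from 230 ± 15.1 to 118 ± 3.80 CPM (-0.97 ± 0.05). UBE2D1, an E2 with many other partners, rose by 0.27 ± 0.06. All 3 were called (edgeR adjusted p = 2.88e-09, 2.20e-07 and 0.00187 in that order).

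The spindle checkpoint restrains CDC20 until chromosomes are attached. Of 8 genes that act in the checkpoint or in taking it apart, 6 fell and none rose. The median log2 fold change of the 8 was -0.45, and 34.5% of all genes fell. The checkpoint list was drawn up with earlier results of these data known, so its direction is no independent evidence. TRIP13, an ATPase that takes the checkpoint complex apart, fell from 161 ± 7.02 to 61.7 ± 5.96 CPM (-1.38 ± 0.07, edgeR adjusted p = 1.09e-07). MAD2L1, which binds CDC20 directly, fell from 69.2 ± 3.81 to 33.5 ± 0.422 CPM (-1.05 ± 0.06, edgeR adjusted p = 1.40e-07), close to the change of CDC20 itself. MAD1L1 (-0.08) and MAD2L1BP (-0.09) were not called.

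All 24 genes in a list of reported substrates of the complex fell, where 34.5% of all genes did. Their median log2 fold change was -0.67. The changes ran from -1.56 ± 0.06 for RRM2, a ribonucleotide reductase subunit gene, to -0.27 ± 0.06 for SKP2, named here as the end of the range. The mitotic kinase gene PLK1 fell from 233 ± 8.35 to 114 ± 5.85 CPM (-1.03 ± 0.05), with edgeR adjusted p-values of 9.98e-08 for PLK1 and 2.54e-08 for RRM2. CCNB1, which encodes the cyclin destroyed alongside securin, was picked out after its value was seen and fell from 456 ± 19.9 to 275 ± 9.28 CPM (-0.73 ± 0.05). The list was drawn up with earlier results on mitotic genes of these libraries known, so its direction is no independent evidence.

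Of 5 core cohesin genes 2 fell and none rose, where 34.5% of all genes fell and 33.6% rose. SMC3 changed by -0.68 ± 0.06 and SMC1A by -0.41 ± 0.04 (edgeR adjusted p = 2.32e-06 and 7.12e-06). RAD21, which encodes the subunit that separase cuts, stayed uncalled, with 617 ± 24.5 CPM in control libraries and 611 ± 14.7 CPM after knockdown (-0.01 ± 0.04). STAG1 (-0.06) and STAG2 (0.07) were not called either.

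Among 6 further regulators 3 fell and 1 rose, a share called near the 68.1% of all genes, of which 34.5% fell and 33.6% rose. The median log2 fold change of these 6 was -0.22, as was that of the 14 subunit genes. The 5 regulators among the members had a median of -0.89. FBXO43, the relative of FBXO5 known as EMI2, fell from 15.9 ± 0.552 to 8.84 ± 1.23 CPM (-0.84 ± 0.10), and MAD2L2, whose product binds FZR1, changed by -0.36 ± 0.05. BTRC, the F-box protein gene whose product marks EMI1 for destruction, rose from 29.4 ± 2.08 to 44.2 ± 4.01 CPM (0.59 ± 0.08), while its paralogue FBXW11 (-0.08) was not called. The edgeR adjusted p was 3.38e-05 for FBXO43, 6.48e-05 for MAD2L2 and 6.94e-05 for BTRC. Of the deubiquitinase genes USP37, named after its value was seen, fell by 0.45 and USP44 (0.12) was not called.

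**Figure D5:**
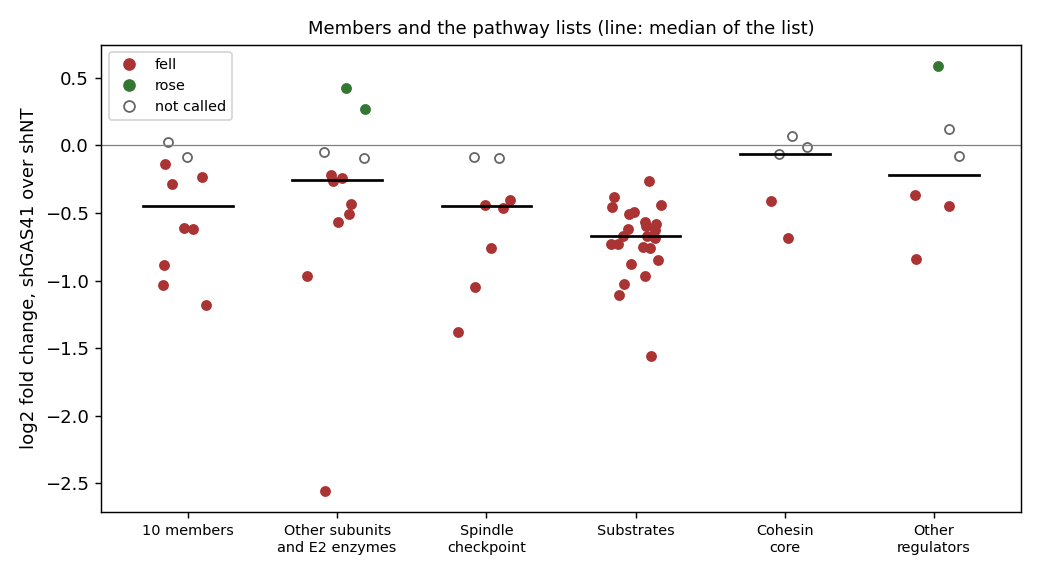
Log2 fold change of knockdown over control (y axis) for the 10 members and the 5 pathway lists, with points for genes and lines for list medians, filled where the gene passed the test. All 24 substrates lie below 0, while the cohesin genes lie near it apart from SMC3 and SMC1A.

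The genes whose profiles over the 6 libraries lay nearest to those of 3 members were found among 8324 genes with a mean log2 CPM of at least 4, on log2 CPM centred on the control mean. Nearest to CDC20 were TOP3A, MCM7 and RAD51C, at root mean square distances of 0.0302, 0.0312 and 0.0323. FZR1 was followed most closely by AP4M1 (0.0126), ZNF74 (0.0226) and USP19 (0.0231), and PTTG1 by MRPL13 (0.0179), MRPL37 (0.0205) and TFDP1 (0.0225). With 6 libraries in 2 groups this distance is set mainly by the size of the change between groups: TOP3A changed by -1.01, AP4M1 by -0.27 and MRPL13 by -0.62 on the log2 scale.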

How the data were processed

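RNA of H1299 cells was measured in 3 shNT and 3 shGAS41 libraries, grouped by sample title. The whole-number counts per gene were used as deposited by the authors. Per the submitters' processing notes, TopHat2 2.0.10, HTSeq and other tools and the build hg19 served the series, with no role stated. Annotation, counting options and strand use are not given in these sources. The authors' log2 fold changes and p-values in the same table were used for description only.

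Counts were fitted with edgeR 4.0.16 (limma 3.58.1, R 4.3.3) by the quasi-likelihood test, with TMM scaling, filterByExpr (7 genes left out), robust dispersion and Benjamini-Hochberg adjustment at 0.05. CPM are TMM-scaled, and SE is the log2 fold change divided by the square root of F. The code was tested on simulated data, with the same dispersion for all genes and far fewer genes changed than were called here. It recovered 62% of the genes changed 1.3-fold, 90% at 1.5-fold and 100% at 2-fold. The called falls of FZR1 (1.22-fold), CDC23 (1.17-fold) and CDC27 (1.10-fold) were smaller than any fold simulated. At this depth the precision of the members' values rests on how the libraries scatter.

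Same-numbered libraries deviated together from their group means (correlations 0.652, 0.255 and 0.315 over genes), and so did shNT 2 with shGAS41 3 (0.428) and shNT 3 with shGAS41 2 (0.445), more than 2 or 3 did with its own number. The numbers therefore set replicate 1 of both groups apart, but do not pair replicates 2 and 3. A fit with the replicate number as a block was run beside the main test. Other alternatives were DESeq2 1.42.0, RLE scaling, library totals alone, no filter, 1 CPM in 3 libraries, no robust estimation and leaving out each library.

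Members and 5 lists (55 genes) were chosen with earlier results of these data known. Named genes are the members, YEATS4, per list the 2 called rises and 2 called falls of smallest p and the genes not called, near copies, overlapping genes and the 3 nearest profiles. Outside that rule all other subunits are named whatever their value, with SKP2, CCNB1 and USP37. Promoters are from RefSeq (GRCh38.p14). Other samples of the series were not analysed here.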

Additional observations from a re-analysis of the deposited data

How the results depend on the processing

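Of the 10 members 9 kept the direction of their change under all 13 alternative settings listed for them, and CDC16, which was not called, ranged from -0.0069 to 0.064 over the fits without 1 library. The 7 called members other than CDC27 also kept their calls. CDC27 lost its call in 4 of the 6 fits that left out 1 library, where its log2 fold change lay between -0.13 and -0.11. The number of members that fell was 7 rather than 8 in those 4 fits, which had fewer libraries. Over all 6 fits the CDC27 value lay between -0.17 and -0.11. With a replicate block 10394 genes were called (9425 without it) and no call of a member changed, nor did the counts of any list. DESeq2 called 9351 genes. With library totals alone 5012 genes fell and 4461 rose, and the median over all genes moved by -0.02. For the 3 count ratios leaving out 1 library gave differences of -0.81 to -0.71 (CDC20 over FZR1), -1.01 to -0.80 (FBXO5 over FZR1) and 0.24 to 0.29 (PTTG1 over ESPL1). Adding the counts of CDC20P1 to CDC20 was chosen after seeing the data. The lowest group means in the 5 lists were 8.74 CPM for USP44 in control and 7.98 CPM for ANAPC10 in knockdown libraries. Depth alone therefore limits none of these values much, although USP44 had an SE of 0.19 on the log2 scale.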

Other observations

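The authors' deposited table, which holds its own log2 fold changes beside the counts, gave most members smaller falls than the counts do here. It listed CDC20 at -0.61, ESPL1 at -0.49, FBXO5 at -0.50, PTTG1 at -0.28 and ANAPC1 at -0.28, all with the authors' adjusted p between 3.9e-05 and 0.0204. CDC23 was the member with a larger fall in the authors' deposited table, at -0.70 (the authors' adjusted p = 0.00934) against -0.23 from the counts. FZR1 (-0.0050), CDC27 (-0.09), CDC16 (0.04) and ANAPC11 (0.07) were not called in the authors' deposited table, which thus called 6 members, all as falls. Across the 13846 genes tested the 2 sets of log2 fold changes had a Pearson r of 0.880, as a description, with a median of 0.12 in the authors' deposited table and -0.0051 here. The model behind the authors' values is not given in these sources, and the cause of the differences was not tested.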
